A study of Homo sapiens with 12 samples.

Results

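The genes described here are 10 that encode amino acid transporters of the plasma membrane, chosen by their symbols from the 34595 rows of the deposited array table: SLC7A5, SLC3A2, SLC7A6, SLC43A1, SLC7A1, SLC7A11, SLC1A4, SLC1A5, SLC38A1 and SLC38A2. They were chosen with earlier results of these data known. Each symbol had 1 row, and all 10 genes entered the tests, which covered the 19670 genes that read above 6.817, the median of all values, on 3 or more arrays. The RNA was that of ECC1 cells, a line of human endometrial cancer, in its parental form or in 1 derived line in which MTDH had been knocked out. Either line was first kept for 24 h in RPMI1640 with serum (5%) stripped by charcoal, which lowers steroid hormones, and the cells were left untreated or given estradiol at 10 nM for 24 h. The 4 groups, named parental untreated, parental estradiol, knockout untreated and knockout estradiol, held 3 Illumina arrays each. With a single knockout line, loss of MTDH and any other property of that line cannot be told apart. The labels do not say whether the 3 arrays of a group came from separate cultures, and the p-values therefore rest on a spread between samples that may be only technical.

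Amino acid transporters set how much of each amino acid a cell takes up and gives away, and many of them exchange one amino acid for another. SLC3A2, the heavy chain also called CD98 or 4F2hc, carries no amino acids itself. It binds light chains such as SLC7A5 (LAT1, an exchanger of leucine and other large neutral amino acids), SLC7A6 (an exchanger of cationic for neutral amino acids) and SLC7A11 (xCT, which imports cystine against glutamate) and brings them to the cell surface. SLC43A1 (LAT3) moves large neutral amino acids without a heavy chain. SLC7A1 (CAT1) takes up arginine and lysine, SLC1A4 (ASCT1) and SLC1A5 (ASCT2) exchange small neutral amino acids and, for the latter, glutamine, and SLC38A1 and SLC38A2 (SNAT1 and SNAT2) take up neutral amino acids with sodium. SLC7A5 is known as a gene that estrogen raises in breast cancer cells, and many genes of this kind are known targets of ATF4, the transcription factor of the amino acid response.

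On 2 arrays the level of MTDH went against the label. MTDH read between 10.78 and 11.43 (log2) on the 3 parental untreated arrays and between 8.53 and 8.59 on the 3 knockout untreated arrays. The knockout values still lay at percentiles 83.5, 83.6 and 83.8 of their arrays, and the source of this remaining signal was not tested. MTDH read 8.97 on parental estradiol replicate 3, against 10.83 and 10.96 on the other parental estradiol arrays. On knockout estradiol replicate 1 it read 10.94, against 8.49 on each of the other knockout estradiol arrays. Across all genes, parental estradiol replicate 3 was closest to knockout estradiol replicate 3 (r = 0.9965), and knockout estradiol replicate 1 was closest to parental estradiol replicate 2 (r = 0.9967). Labels were kept, and results are given for all 12 arrays and for the 10 arrays without these 2. MTDH differed between the untreated lines by −2.57 ± 0.58 (SE, adjusted p = 0.016) and between the lines with estradiol by −0.94 ± 0.58 (adjusted p = 0.90). With 10 arrays the latter difference was −2.40. The 2 arrays were left out for their MTDH level, so the fit of 10 arrays is no test of MTDH itself. The estradiol differences of MTDH, −0.88 (parental) and 0.75 (knockout), and its interaction of 1.62 missed the threshold. With 10 arrays these values were −0.24, −0.07 and 0.17. All 10 endometrial epithelial markers listed, among them EPCAM and PAX8, exceeded the median of all values on every array, as did 2 of 8 fibroblast, 1 of 6 immune and 1 of 4 endothelial markers. Of the epithelial markers, KRT18 (6.83 to 6.98) stayed close to that median, and the lowest value of CLDN4 (6.87 to 7.52) was also close to it. The immune marker PTPRC (6.59 to 6.72) and the endothelial marker CDH5 (6.50 to 6.68) stayed under that median, while the exceptions were the immune marker CD68 (7.91 to 8.27), the endothelial marker VWF (7.10 to 7.76) and the fibroblast markers COL1A1 (7.34 to 8.15) and COL3A1 (6.86 to 7.33). In bulk RNA of this kind, fewer cells of a type and less RNA per cell cannot be told apart.

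Estradiol raised the heavy chain and 1 of its light chains in both lines. SLC7A5 read 12.49, 12.20 and 12.07 (log2) on the parental untreated arrays and 13.24, 13.34 and 13.33 on the parental estradiol arrays. It read 12.30, 12.10 and 12.13 on the knockout untreated arrays and 13.32, 13.45 and 13.20 on the knockout estradiol arrays. Every estradiol array lay above every untreated array, by a gap wider than the spread within any group, and the 2 arrays that went against their MTDH label lay inside the range of the other estradiol arrays. The change was 1.05 ± 0.10 (SE, n = 3 arrays per group, adjusted p = 5.4e-05) in the parental line, a 2.07-fold rise, and 1.15 ± 0.10 (adjusted p = 2.5e-05) in the knockout line, a 2.21-fold rise. With 10 arrays it was 1.03 ± 0.11 (adjusted p = 8.3e-06) and 1.15 ± 0.11 (adjusted p = 3.9e-06). The mean response over both lines, 1.10 with a 95% interval from 0.94 to 1.25, was the 25th largest rise among the 19670 genes. The 4 group means were ordered knockout untreated (12.18), parental untreated (12.26), parental estradiol (13.30) and knockout estradiol (13.32), and neighbours of the same treatment did not differ beyond their spread.

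SLC3A2 followed the same order of treatments with a smaller step. It read 10.99, 10.87 and 10.56 on the parental untreated arrays and 11.52, 11.57 and 11.54 on the parental estradiol arrays. In the knockout line it read 10.79, 10.68 and 10.78 without estradiol and 11.57, 11.47 and 11.32 with it. No untreated array reached the lowest estradiol array in either line, and the 3 parental estradiol arrays lay within 0.05 of one another. The rise was 0.73 ± 0.10 (adjusted p = 0.00064), or 1.66-fold, in the parental line and 0.71 ± 0.10 (adjusted p = 0.0012), or 1.63-fold, in the knockout line. Without the 2 arrays the rises were 0.74 ± 0.10 (adjusted p = 0.00015) and 0.65 ± 0.10 (adjusted p = 0.00072). Over both lines the response of 0.72 (95% interval 0.57 to 0.87) ranked 64th among the rises of all tested genes. When a change of at least 1.2-fold was required of the test, the call of SLC3A2 in the knockout line was lost (adjusted p = 0.065).

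**Figure D1:**
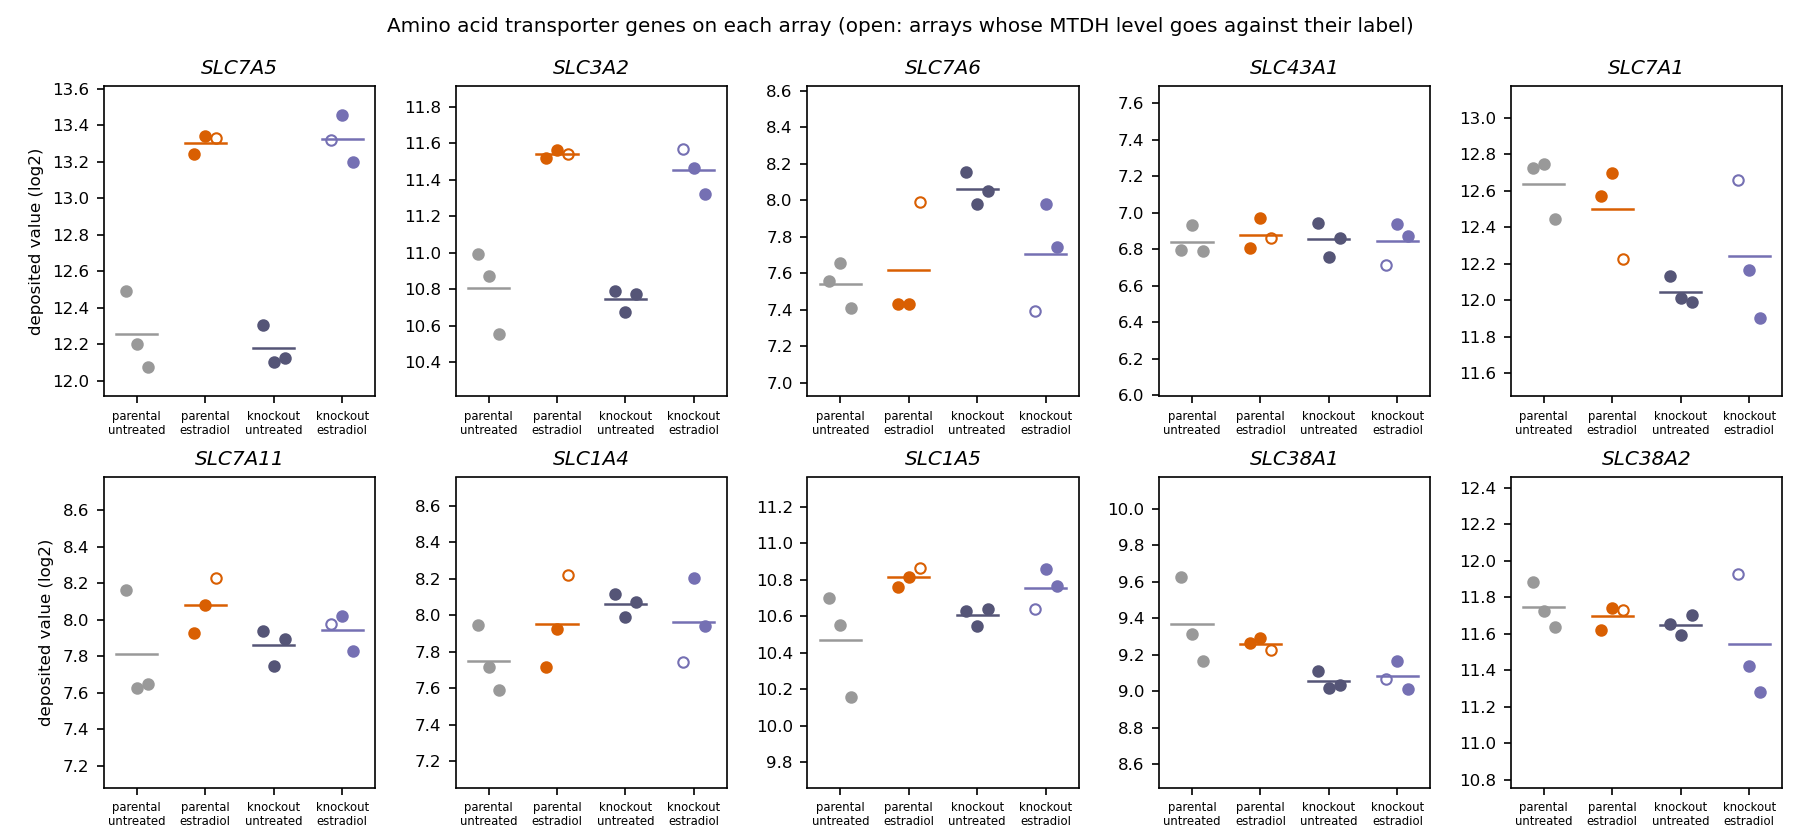
Deposited value (log2, vertical axis, the same length of scale in each panel) of the 10 transporter genes on each of the 12 arrays, by group. Points are arrays, lines are group means, and open points are the 2 arrays whose MTDH level went against their label. SLC7A5 reads 12.07 to 12.49 on untreated arrays and 13.20 to 13.45 with estradiol, and SLC3A2 separates by treatment in the same way.

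The genes of the pair that rose lie on different chromosomes, SLC7A5 at chr16:87830023-87869507 and SLC3A2 at chr11:62856109-62888860 (GRCh38.p14). The 250 bases before the start of each are shown because both genes moved together, with letters from RefSeq on GRCh38.p14, 5′ to 3′ on the strand of the gene. The SLC7A5 stretch is chr16:87869508-87869757 on the minus strand, and the SLC3A2 stretch is chr11:62881449-62881698 on the plus strand, before 1 of 3 starts listed for that gene. Capitals mark CACGTG, the E-box bound by MYC and related factors, and TGACNNNGC, the core of the antioxidant response element bound by NFE2L2. The capitals that end the SLC7A5 stretch are the first letters of a match that runs on past the start.
SLC7A5: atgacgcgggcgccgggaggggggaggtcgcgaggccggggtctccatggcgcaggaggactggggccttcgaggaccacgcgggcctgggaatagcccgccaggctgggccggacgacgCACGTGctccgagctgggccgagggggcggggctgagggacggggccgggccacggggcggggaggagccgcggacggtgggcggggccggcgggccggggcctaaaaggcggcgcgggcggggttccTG
SLC3A2: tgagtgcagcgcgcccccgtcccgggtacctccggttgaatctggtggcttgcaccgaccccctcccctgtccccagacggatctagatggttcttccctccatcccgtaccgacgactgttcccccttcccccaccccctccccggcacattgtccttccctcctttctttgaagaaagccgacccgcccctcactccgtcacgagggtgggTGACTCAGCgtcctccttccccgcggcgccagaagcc
In windows of 300 bases, 250 before a start and 50 from it on, SLC7A5 held CACGTG at −130 and TGACNNNGC at −2. The start base counts as 1, the base before it as −1, and there is no 0. The first SLC3A2 start held TGACNNNGC at −37 and, at 38, the amino acid response composite element TGATGNAA, which ATF4 and its partners bind. The other SLC3A2 starts held none of the 4 motifs searched. AGGTCA, the core hexamer of the estrogen response element, was in neither the SLC7A5 window nor the 3 SLC3A2 windows, which says only that these letters are not in these windows.

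Motifs were searched on both strands in 34796 RefSeq promoters of that length, of which 3.63% held TGATGNAA, 7.2% CACGTG, 13.3% TGACNNNGC and 13.8% AGGTCA. Promoters were found for 9 of the 10 genes, with 1 to 3 starts each, and SLC7A11 had no entry. TGATGNAA was in a window of 5 of these genes, SLC3A2, SLC7A1, SLC1A4, SLC1A5 and SLC38A1. It was at 1 of 3 starts of SLC3A2 and of SLC1A5, at 1 of 2 of SLC1A4 and of SLC38A1, and at the 1 start of SLC7A1. The share of 3.63% is per window, so this count of genes cannot be set against it. These matches are shown, in capitals, because the element is the known point of control of several transporter genes by amino acid supply. A match is a description of letters and not a measured site. Letters run 5′ to 3′ on the strand of the gene, and a match on the opposite strand therefore appears as its reverse complement.
SLC3A2: caggactccTTACATCAgctcc
SLC7A1: gcgcactgcTGATGAAAcctggcgcc
SLC1A4: ggctcccgtTTGCATCAtctccagcc
SLC1A5: ggaagtggcTGATGCAAgctgtccag
SLC38A1: agacccgaaTGATGAAAagggatcag
The stretches are chr11:62881727-62881748 (plus) for SLC3A2, chr13:29595665-29595690 (minus) for SLC7A1, chr2:64989383-64989408 (plus) for SLC1A4, chr19:46784895-46784920 (minus) for SLC1A5 and chr12:46266504-46266529 (minus) for SLC38A1. Of these 5 genes, SLC3A2 rose with estradiol in both lines, and the other 4 are described among the genes that follow. AGGTCA had 1 match among the 9 genes, at −108 from a start of SLC1A5, where it shared letters with a TGACNNNGC match on the opposite strand. The windows of SLC7A6 and SLC7A1 also held TGACNNNGC, those of SLC43A1 and, at −50 from the same start, SLC1A5 held CACGTG, and that of SLC38A2 held none of the 4.

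Over the whole set, 2 of 10 genes were called higher with estradiol in the parental line and 0 lower at an adjusted p under 0.05, against 7% of all tested genes called in either direction, 1.12% higher and 5.87% lower. Because the genes were chosen with earlier results of these data known, a count above the share of all genes is no independent support. The same 2 genes, SLC7A5 and SLC3A2, were called higher in the knockout line and 0 lower, where 3.88% of all genes were called, 1.18% higher and 2.69% lower. For the mean response, 2 were called higher and 0 lower, against 10.6% of all genes, 1.85% higher and 8.76% lower. The median change of the 10 genes was 0.14 in the parental line and 0.06 in the knockout line, beside medians over all tested genes of −0.05 and −0.02. With 10 arrays the members' medians were 0.06 and 0.04 (all genes −0.07 and −0.02), and after quantile normalization of 12 arrays they were 0.22 and 0.10. Groups did not overlap for 3 of 10 genes in the parental line (25.2% of all genes) and for 2 of 10 in the knockout line (20.9%). Leaving out single arrays moved the number of all genes called from 1376 to between 508 and 1707 in the parental line and from 763 to between 323 and 1105 in the knockout line. With 10 arrays, 2 members were called higher and 0 lower in the parental line, where 10.7% of all genes were called, 1.61% higher and 9.14% lower. In the knockout line 2 were then called higher and 1 lower, against 6.8%, of which 2.54% higher and 4.26% lower, and for the mean response 3 higher and 1 lower, against 14.4%, of which 2.56% higher and 11.8% lower.

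**Figure D2:**
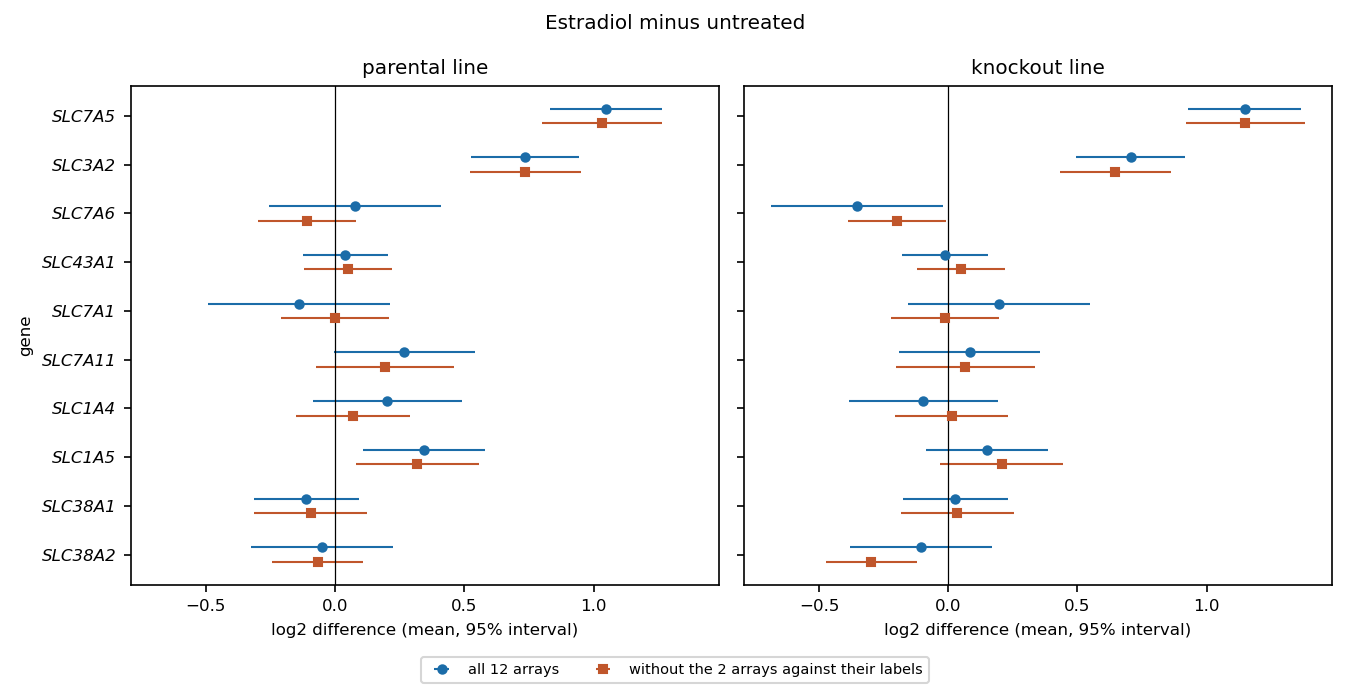
Difference between estradiol and untreated groups (log2, horizontal axis) for each of the 10 genes in the parental line (left) and the knockout line (right). Circles give the fit of 12 arrays and squares the fit without the 2 arrays whose MTDH level went against their label, with 95% intervals from limma. SLC7A5 and SLC3A2 are the genes whose intervals lie farthest above 0 in both lines.

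**Figure D3:**
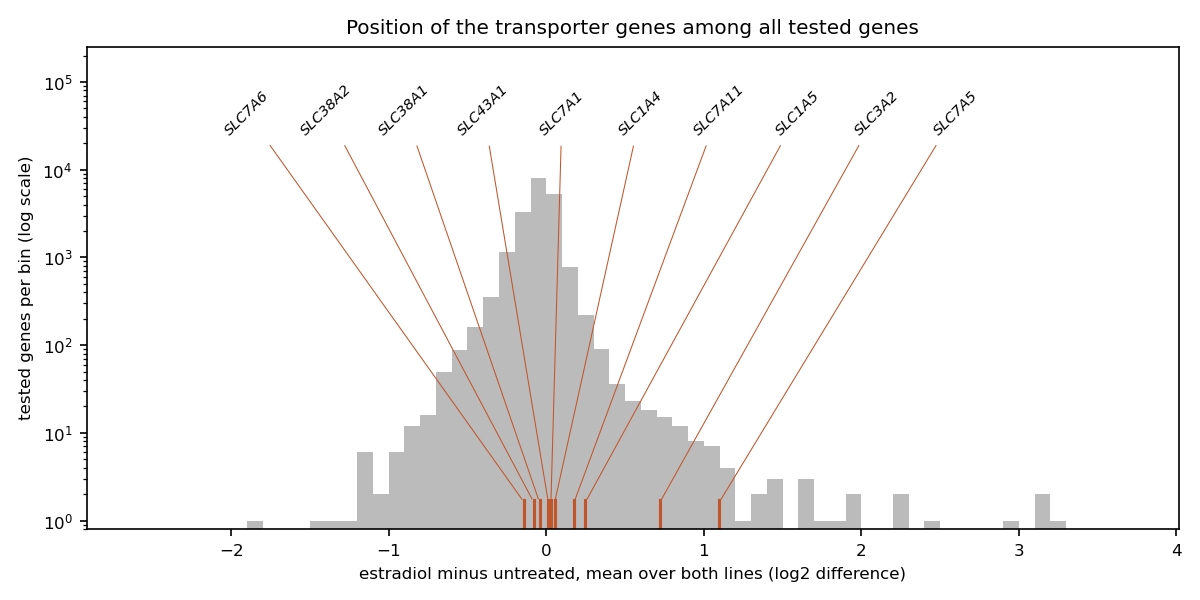
Number of tested genes (log scale, vertical axis) in bins of 0.1 of the mean estradiol response over both lines (log2 difference, horizontal axis), for 19670 genes and 12 arrays. Marks at the base show the 10 transporter genes, of which SLC7A5 at 1.10 and SLC3A2 at 0.72 lie in the right tail and the other 8 between −0.14 and 0.25.

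The glutamine exchanger SLC1A5 had the next largest rise with estradiol in the parental line and in the mean of both lines. It read 10.70, 10.55 and 10.16 on the parental untreated arrays and 10.76, 10.82 and 10.87 on the parental estradiol arrays. In the knockout line it read 10.63, 10.55 and 10.64 without estradiol and 10.64, 10.86 and 10.77 with it. The parental groups did not overlap, though parental untreated replicate 1 lay just under the lowest estradiol array, and in the knockout line 1 untreated and 1 estradiol array were level. The difference of 0.34 ± 0.11 in the parental line missed the threshold (adjusted p = 0.079). So did 0.15 ± 0.11 (adjusted p = 0.58) for knockout cells and the mean of 0.25 ± 0.08 (adjusted p = 0.060). Leaving out the 2 arrays, the mean of 0.26 ± 0.08 passed it (adjusted p = 0.035), while the parental difference of 0.32 did not (adjusted p = 0.083). Quantile normalization took both the parental difference (0.46, adjusted p = 0.012) and the mean (0.30, adjusted p = 0.010) past the threshold. Leaving out parental untreated replicate 1 did so too for SLC1A5 (0.46 in the parental line, adjusted p = 0.033, and 0.30 in the mean, adjusted p = 0.020), and leaving out knockout estradiol replicate 1 did so for the mean (0.28, adjusted p = 0.039). A filter at the 67th percentile (0.25, adjusted p = 0.049) and array weights (0.22 in the mean, adjusted p = 0.038, and 0.29 in the parental line, adjusted p = 0.042) also took SLC1A5 past it.

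The cystine exchanger SLC7A11, the other light chain with a positive difference in both lines, read 8.16, 7.63 and 7.65 on the parental untreated arrays and 7.93, 8.08 and 8.23 on the parental estradiol arrays. Replicate 1 of the untreated group lay above 2 of the 3 estradiol arrays, and the groups overlapped. The difference was 0.27 ± 0.13 (adjusted p = 0.25), and leaving out that untreated array made it 0.44 (adjusted p = 0.026) and the mean of both lines 0.26 (adjusted p = 0.026) in place of 0.18 (adjusted p = 0.26). In the knockout line the values ran from 7.75 to 7.94 without estradiol and from 7.83 to 8.02 with it, a difference of 0.08 ± 0.13 (adjusted p = 0.83). With 10 arrays the differences were 0.19 (adjusted p = 0.38) in the parental line and 0.07 (adjusted p = 0.87) in the knockout line.

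The remaining members did not pass the test for estradiol with 12 arrays in either line. SLC1A4 differed by 0.20 ± 0.13 in the parental line and −0.10 ± 0.13 in the knockout line, and SLC7A1 by −0.14 ± 0.16 and 0.20 ± 0.16. SLC38A1 differed by −0.11 ± 0.09 and 0.03 ± 0.09. With 10 arrays these differences were 0.07 and 0.01 for SLC1A4, and −0.09 and 0.03 for SLC38A1. SLC43A1 exceeded the median of all values on 7 of 12 arrays and differed by 0.04 ± 0.08 and −0.01 ± 0.08, and its 12 values ran from 6.72 to 6.97. Values this close to the median of all values, where markers of other cell types also lay, do not show how its transcript changed. The sodium-coupled carrier SLC38A2 was lower with estradiol in the knockout line once the 2 arrays were left out (−0.30 ± 0.08, adjusted p = 0.041), and for the mean of both lines (−0.18 ± 0.06, adjusted p = 0.048). With all 12 arrays its knockout difference was −0.10 ± 0.13 (adjusted p = 0.78), where knockout estradiol replicate 1 read 11.93 against 11.42 and 11.28 on the other estradiol arrays of that line.

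The interaction, which subtracts the parental response to estradiol from the knockout response, asked whether these changes differed between the lines. With limma, 0 of 10 members were called, both with 12 arrays, where 0.00508% of all genes were called, and with 10 arrays, where 0.752% were. At an unadjusted p under 0.05 there were 2069 genes in all with 12 arrays and 2683 with 10, and 0 of the 10 members in either. For SLC7A5 the difference of responses was 0.10 with a 95% interval from −0.21 to 0.41 (adjusted p = 0.86), and for SLC3A2 it was −0.03 with an interval from −0.33 to 0.27 (adjusted p = 0.96). Without the 2 arrays these values were 0.12 (interval −0.21 to 0.44) and −0.09 (interval −0.39 to 0.21). SLC7A6 had the largest difference with 12 arrays, −0.43 (interval −0.90 to 0.04), which became −0.09 (interval −0.36 to 0.18) without the 2 arrays. The other 7 members lay between −0.30 (SLC1A4) and 0.34 (SLC7A1) with 12 arrays and between −0.23 (SLC38A2) and 0.13 (SLC38A1) with 10.

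The comparison of the lines without hormone, which uses no array whose MTDH level was in doubt except for the shared estimate of spread, called 3 of 10 members. SLC7A6 was higher and SLC7A1 and SLC38A1 were lower in the knockout line, against 10.9% of all tested genes called, 2.31% higher and 8.63% lower. Groups did not overlap for 4 of 10 members, compared with 34.8% of all genes. The median difference of the members was −0.02, beside −0.03 over all genes, and its sign turned after quantile normalization (0.11). Estimating the spread from 10 arrays left every difference as it was and added SLC1A4, so that 2 members were called higher and 2 lower, where 19.5% of all genes were called, 5.98% higher and 13.6% lower.

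The cationic carrier SLC7A1 read 12.72, 12.74 and 12.45 on the parental untreated arrays and 12.13, 12.01 and 11.99 on the knockout untreated arrays. Every knockout array lay below every parental array. The difference was −0.59 ± 0.16 (95% interval −0.94 to −0.24, adjusted p = 0.035), which is 1.51-fold lower in the knockout line, and the adjusted p was 0.00015 when the spread came from 10 arrays. With estradiol, SLC7A1 read 12.57, 12.70 and 12.22 on arrays labelled parental and 12.66, 12.16 and 11.90 on arrays labelled knockout. These groups overlapped through the 2 arrays in question: parental estradiol replicate 3 was the lowest of its group and knockout estradiol replicate 1 the highest of its own. The labelled difference was −0.26 ± 0.16 (adjusted p = 0.90), and without the 2 arrays it was −0.60 ± 0.11 (adjusted p = 0.0013), close in size to that without hormone. The estradiol response of SLC7A1 then had an interval of −0.21 to 0.21 in the parental line and of −0.22 to 0.20 in the knockout line.

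SLC7A6, the light chain that exchanges cationic for neutral amino acids, went the other way. It read 7.56, 7.66 and 7.41 on the parental untreated arrays and 8.16, 7.98 and 8.05 on the knockout untreated arrays. The groups did not overlap, and the difference was 0.52 ± 0.15 (95% interval 0.19 to 0.85, adjusted p = 0.047), or 1.43-fold, with an adjusted p of 0.00020 from 10 arrays. With estradiol the parental arrays read 7.43, 7.43 and 7.99, and the knockout arrays 7.39, 7.98 and 7.74. Again the high parental value was that of replicate 3 and the low knockout value that of replicate 1, the arrays that went against their labels. The labelled difference was 0.09 ± 0.15 (adjusted p = 0.96), and without those arrays it was 0.43 ± 0.10 (adjusted p = 0.0084). The estradiol response of SLC7A6 in the knockout line was −0.35 ± 0.15 with 12 arrays (adjusted p = 0.27) and −0.20 ± 0.09 with 10 (adjusted p = 0.24).

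**Figure D4:**
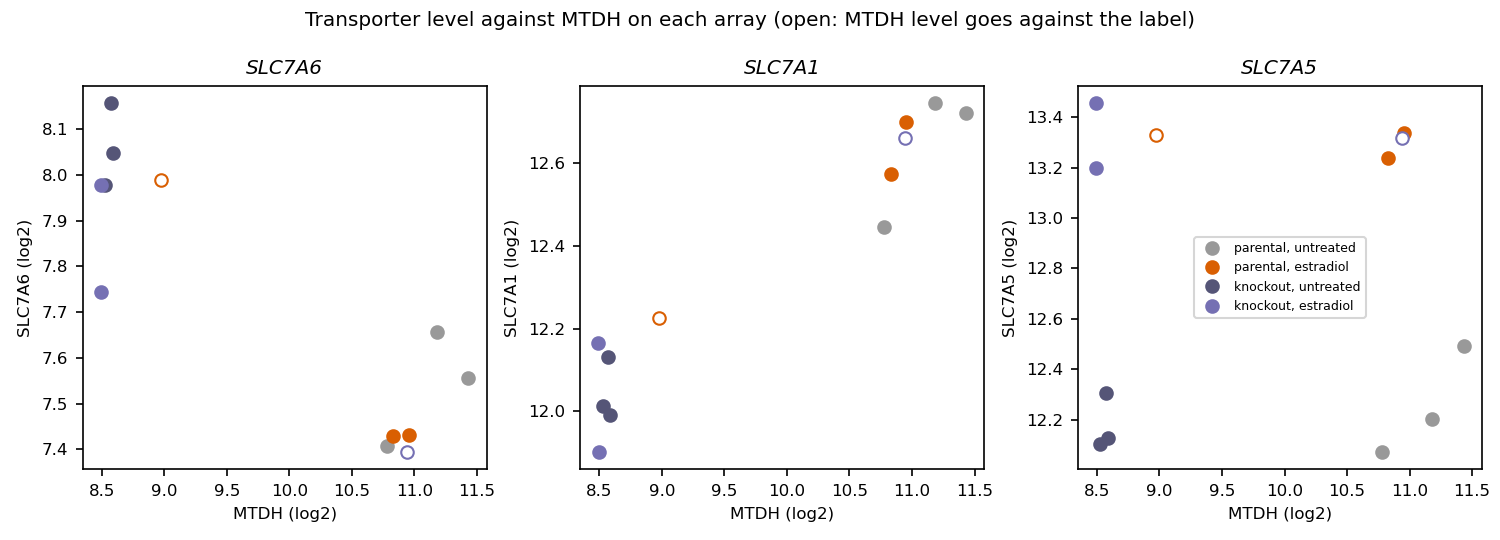
Values of SLC7A6, SLC7A1 and SLC7A5 (log2, vertical axes) against MTDH (log2, horizontal axes) on each of the 12 arrays, coloured by labelled group. Open points are parental estradiol replicate 3, with MTDH at 8.97, and knockout estradiol replicate 1, with MTDH at 10.94. For SLC7A6 and SLC7A1 the open points lie with the arrays of similar MTDH level, and for SLC7A5 they lie with the arrays of the same treatment.

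The glutamine and alanine carrier SLC38A1 read 9.63, 9.31 and 9.17 on the parental untreated arrays and 9.11, 9.02 and 9.04 on the knockout untreated arrays. The groups did not overlap, although the lowest parental array was near the highest knockout array. The difference was −0.32 ± 0.09 (adjusted p = 0.047, and 0.023 from 10 arrays). With estradiol it read 9.26, 9.29 and 9.22 in arrays labelled parental and 9.07, 9.17 and 9.01 in arrays labelled knockout. Those groups did not overlap either, but the differences of −0.18 ± 0.09 with 12 arrays (adjusted p = 0.90) and −0.19 ± 0.11 with 10 (adjusted p = 0.39) missed the threshold.

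SLC1A4, the small neutral amino acid exchanger, read 7.95, 7.72 and 7.59 on the parental untreated arrays and 8.12, 7.99 and 8.07 on the knockout untreated arrays. The groups did not overlap. The difference of 0.31 missed the threshold with 12 arrays (± 0.13, adjusted p = 0.16) and passed it with the spread from 10 (± 0.09, adjusted p = 0.027). With estradiol the difference was 0.01 ± 0.13 by the labels and 0.25 ± 0.11 (adjusted p = 0.21) without the 2 arrays.

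The calls between the untreated lines were close to the threshold with 12 arrays. Leaving out in turn parental untreated replicate 1 or 2, or knockout untreated replicate 1, 2 or 3, ended all 3 calls, with the difference of SLC7A1 between −0.69 and −0.54 over all 12 omissions, that of SLC7A6 between 0.45 and 0.58 and that of SLC38A1 between −0.42 and −0.19. The call of SLC7A6 also ended without parental untreated replicate 3 (0.45, adjusted p = 0.12), and those of SLC7A6 and SLC38A1 without knockout estradiol replicate 3 (adjusted p = 0.059 and 0.054). That of SLC38A1 further ended without parental estradiol replicate 1 (adjusted p = 0.062) or 2 (adjusted p = 0.060). After quantile normalization SLC7A6 stayed called (0.57, adjusted p = 0.028), while SLC7A1 (−0.40, adjusted p = 0.14) and SLC38A1 (−0.20, adjusted p = 0.13) did not.

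SLC7A5 and SLC3A2 did not pass the test between the lines. Without hormone SLC7A5 differed by −0.08 (interval −0.30 to 0.14, adjusted p = 0.69) and SLC3A2 by −0.06 (interval −0.27 to 0.15, adjusted p = 0.77). With estradiol they differed by 0.02 (interval −0.20 to 0.24) and −0.09 (interval −0.30 to 0.12) by the labels, and by 0.04 (interval −0.22 to 0.29) and −0.15 (interval −0.38 to 0.09) without the 2 arrays. SLC1A5 (0.14 ± 0.11), SLC38A2 (−0.10 ± 0.13), SLC7A11 (0.05 ± 0.13) and SLC43A1 (0.02 ± 0.08) also missed the threshold between the untreated lines.

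Between the lines with estradiol, limma called 0 of 10 members by the labels, where 0% of all genes were called. In that fit 1064 genes but 0 members had an unadjusted p under 0.05. Without the 2 arrays it called 3 members, SLC7A6 higher and SLC7A1 and SLC38A2 lower, where 9.79% of all genes were called, 4.96% higher and 4.83% lower. SLC38A2 read 11.62 and 11.74 on the parental and 11.42 and 11.28 on the knockout estradiol arrays that remained, a difference of −0.33 ± 0.09 (adjusted p = 0.030). SLC7A11 differed by −0.14 with 12 arrays and −0.08 with 10, SLC1A5 by −0.06 and 0.02, and SLC43A1 by −0.04 and 0.02, and none of these passed the test. Groups did not overlap for 1 of 10 members with 12 arrays (8.72% of all genes) and for 6 of 10 with 10 arrays (46.4%), where groups of 2 overlap less easily.

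**Figure D5:**
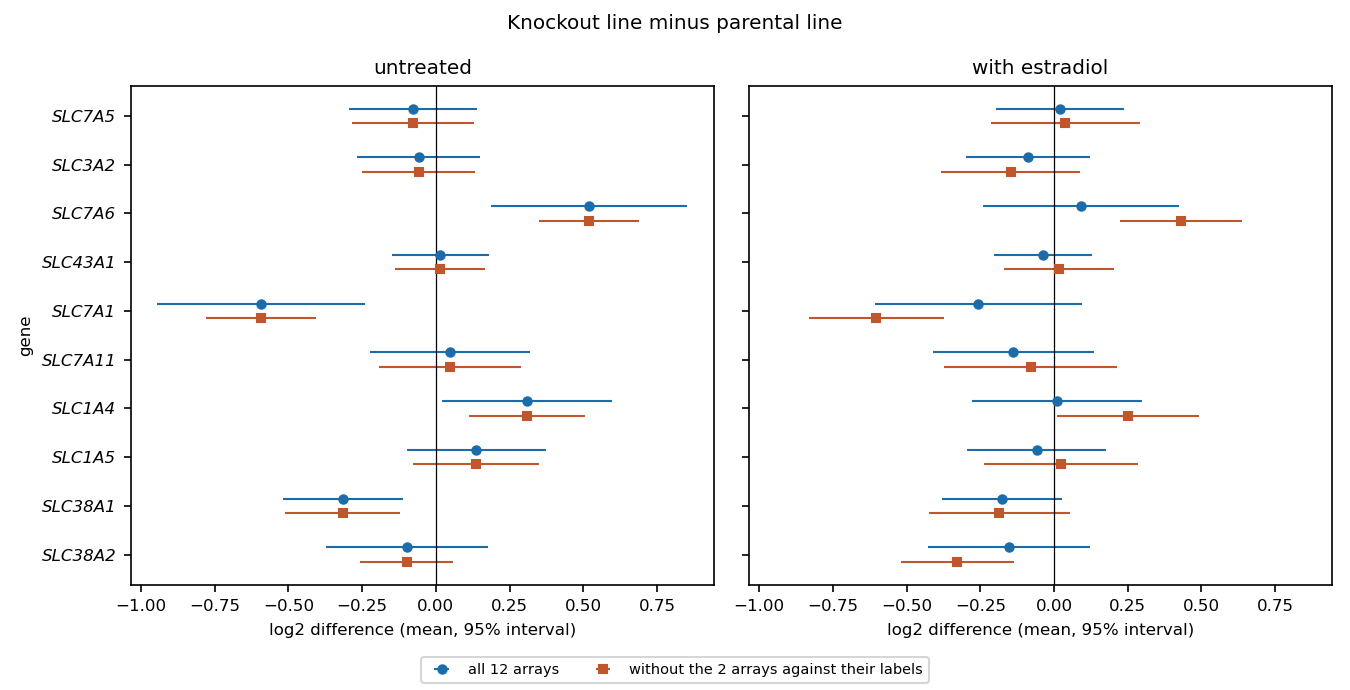
Difference between the knockout and parental lines (log2, horizontal axis) for each of the 10 genes, untreated (left) and with estradiol (right). Circles give the fit of 12 arrays and squares the fit without the 2 arrays whose MTDH level went against their label, with 95% intervals from limma. SLC7A1 lies at −0.59 and SLC7A6 at 0.52 untreated, and with estradiol both move away from 0 when the 2 arrays are left out.

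Epithelial markers moved with both contrasts. The mean of the 10 endometrial epithelial markers ran from 10.11 to 10.30 on parental untreated arrays, from 9.67 to 9.84 with estradiol, from 9.85 to 9.91 on knockout untreated arrays and from 9.57 to 9.81 with estradiol. Of these markers, 6 were called lower in the untreated knockout line (8.63% of all genes), 6 with estradiol in the parental line (5.87%) and 3 with estradiol in the knockout line (2.69%). With 10 arrays these counts were 8, 6 and 5, against 13.6%, 9.14% and 4.26% of all genes. Of the 4 fibroblast markers tested, COL1A1 was higher in the untreated knockout line (0.52, adjusted p = 0.011), and COL1A1 (−0.66) and COL3A1 (−0.38) were lower with estradiol in that line. VWF, the endothelial marker tested, was lower with estradiol in the parental line (−0.48) and the knockout line (−0.31), while the defining markers LUM, PDGFRB, PTPRC and CDH5 stayed under the median of all values on every array. The part of these marker levels in the transporter results was not tested.

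The companion lists, like the members, were chosen with earlier results of these data known. Among 33 other plasma membrane amino acid transporters, 20 were tested. With estradiol in the parental line, 1 was called higher (SLC1A3, a glutamate and aspartate carrier, by 0.38, adjusted p = 0.019) and 1 lower (SLC6A20, a proline carrier, by −0.41, adjusted p = 0.038), beside 1.12% and 5.87% of all genes. With 10 arrays 2 were higher and 1 lower (1.61% and 9.14% of all genes), led by the taurine carrier SLC6A6 (0.97, adjusted p = 6.4e-08). In the knockout line 0 were called in either fit. For the mean response SLC1A3 (0.32) and SLC6A6 (0.61, adjusted p = 0.030) were called higher and 0 lower (1.85% and 8.76% of all genes), and with 10 arrays SLC6A20 was lower as well (−0.21). Between the untreated lines 1 was called higher and 3 lower, beside 2.31% and 8.63% of all genes, and with 10 arrays 4 were higher and 3 lower, beside 5.98% and 13.6%. SLC43A2 (LAT4), a carrier of large neutral amino acids related to SLC43A1, had the largest fall of these, −1.27 ± 0.28 (adjusted p = 0.014), and read 9.58 to 10.10 on parental and 8.42 to 8.64 on knockout untreated arrays. SLC7A8 (LAT2), another light chain of SLC3A2, was higher in the knockout line by 0.34 ± 0.08 (adjusted p = 0.023). Values of SLC7A8 on the 12 arrays ran from 6.63 to 7.04, close to the median of all values (6.817). The parental untreated arrays read 6.63, 6.70 and 6.68, under that median, and the knockout untreated arrays lay above it. Values this close to the median do not show the size of the change in its transcript. Between the lines with estradiol 0 were called with 12 arrays, and 2 higher and 5 lower with 10 (4.96% and 4.83% of all genes). The median of the list was 0.01 for the parental estradiol response and 0.01 between the untreated lines, beside −0.05 and −0.03 over all genes.

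Of 27 tested genes of the amino acid response and ATF4 targets, 3 were called higher and 2 lower with estradiol in the parental line, beside 1.12% and 5.87% of all genes, and 3 and 3 with 10 arrays (1.61% and 9.14%). In the knockout line 1 was called higher and 0 lower, beside 1.18% and 2.69% of all genes, and 7 and 0 with 10 arrays (2.54% and 4.26%). CEBPB, a transcription factor gene that ATF4 activates, rose by 0.75 in the mean response (adjusted p = 1.8e-06), and TRIB3, a feedback inhibitor of ATF4, by 0.39 (adjusted p = 0.0091), while CHAC1, a glutathione-degrading enzyme, fell by 0.28 in the parental line (adjusted p = 0.018). The mean response called 4 higher and 1 lower (1.85% and 8.76% of all genes), and 6 and 3 with 10 arrays (2.56% and 11.8%). Between the untreated lines 0 were higher and 3 lower with 12 arrays (2.31% and 8.63% of all genes), and 5 higher and 3 lower with 10 (5.98% and 13.6%). Between the lines with estradiol the count went from 0 with 12 arrays to 11 higher and 0 lower with 10, beside 4.96% and 4.83% of all genes. PHGDH, the first enzyme of serine synthesis, was then 0.65 higher in the knockout line (adjusted p = 0.00023).

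The other lists gave counts of 0 to 6 in either direction of any comparison. The largest was 6 lower, with 1 higher, for amino acid sensing upstream of mTORC1 between the untreated lines with 10 arrays (13.6% and 5.98% of all genes). Among 16 cytosolic aminoacyl-tRNA synthetases tested, CARS alone was called lower in the untreated knockout line (−0.41, adjusted p = 0.017), beside 8.63% of all genes. CARS alone was called higher with estradiol in that line (0.42, adjusted p = 0.027), beside 1.18%. With 10 arrays 2 synthetases were lower between the untreated lines (13.6%) and 3 higher between the lines with estradiol (4.96%). In the parental response 0 were called in either fit. Of 23 tested genes of amino acid sensing upstream of mTORC1, 2 were lower and 0 higher with estradiol in the parental line, TSC2, an mTORC1 inhibitor (−0.49, adjusted p = 0.0018), and FNIP1 (−0.22, adjusted p = 0.041), a share near the 5.87% of all genes called lower. With 10 arrays the count was again 2 lower and 0 higher, and 0 were called in the knockout response in either fit. Of 14 genes of glutathione synthesis and use, which draws on the cystine that SLC7A11 imports, 3 were lower and 0 higher in the parental response. Of all genes 5.87% were lower and 1.12% higher. GPX4 changed by −0.49 (adjusted p = 0.011), and 4 were lower with 10 arrays, beside 9.14% of all genes. Between the untreated lines 1 was higher and 3 lower in either fit. The shares of all genes were 2.31% and 8.63% with 12 arrays and 5.98% and 13.6% with 10. With 12 arrays GPX4 (−0.43) and CHAC1 (−0.39) were among those lower in the knockout line, and CD44 (0.44) was higher. Of 12 tested regulators known to act on transporter genes, 1 was higher and 3 lower in the parental response, beside 1.12% and 5.87% of all genes. With 10 arrays 1 was higher and 4 lower (1.61% and 9.14%). In the knockout response 0 were higher and 3 lower (1.18% and 2.69%), and 0 and 2 with 10 arrays (2.54% and 4.26%). ESR1, the estrogen receptor, fell by 0.69 in the parental line (adjusted p = 0.00059) and by 0.35 in the knockout line (adjusted p = 0.0498), and MYCN fell by 0.37 and 0.31.

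The genes whose pattern over the 12 arrays was most like that of 4 transporters, those with the widest spread, were found by the mean absolute difference of values centred on each gene's own mean. For SLC7A5 they were MSMB (0.0834) and MFNG (0.0980), and for SLC3A2 they were CRISPLD1 (0.0645) and PLD6 (0.0674). For SLC7A1 they were FAM174B (0.0554) and REEP5 (0.0583), and for SLC7A6 they were TNFSF9 (0.0488) and SERPINI1 (0.0508). SLC7A5 itself had an SD of 0.586 over the 12 arrays and SLC7A6 one of 0.287. The row of the pseudogene SLC7A5P1, looked up after values were seen because it resembles SLC7A5 in sequence, read between 6.63 and 6.89 on all arrays.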

How the data were processed

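RNA from 12 samples of ECC1 cells was measured on Illumina whole-genome arrays by direct hybridization of biotin-labelled material, per the labels' protocols. The authors deposited log2 values, with 1 row for each gene symbol or other identifier. How they corrected background, normalized arrays and combined probes is not given in the sources used here. Array medians lay between 6.78 and 6.86 and upper quartiles spanned 0.197, and the values were used without further normalization. The number of arrays limits the precision. A gene was tested if it read above the median of all values on 3 or more arrays (19670 of 34595). limma 3.58.1 in R 4.3.3 fitted 1 mean per group over all 12 arrays (8 residual degrees of freedom), with default empirical Bayes, two-sided p-values, Benjamini-Hochberg adjustment over all tested genes and a threshold of 0.05 for each of 6 comparisons. A second fit left out the 2 arrays against their labels (10 arrays, 6 degrees of freedom). The pipeline was run on simulated data with the spread of the 10 arrays and no array against its label. That run does not test the fit of the 12 measured arrays.

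The members, the lists and the alternatives were chosen with earlier results of these data known. All members and MTDH were fitted in every comparison and, by the rule for named genes, could be named in each. Of each list, counts are given and only members called with the 3 smallest p of a comparison are named. Of 166 list entries, 137 matched by symbol, 19 by an older symbol and 10 were unmatched. Likeness was computed for the 4 members with the largest SD, with 2 genes each. Of 18 same-numbered pairs of arrays, 6 had a correlation of residuals above 0.1 (range −0.50 to 0.65). The values farthest from 0 were those between the estradiol groups, 0.62, −0.50 and 0.65 for replicates 1, 2 and 3. Those groups hold the 2 arrays against their labels, which enter their means, so these correlations cannot decide on pairing. The labels do not state a pairing, and the numbers were not taken to pair the arrays. Alternatives were 2 other filters, quantile normalization, median centring, array weights, a trended and robust prior, only the compared groups, the replicate block, a threshold of 0.01, a minimum change of 1.2-fold and each array left out. Promoters and coordinates came from RefSeq on GRCh38.p14.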

Additional observations from a re-analysis of the deposited data

Results flagged for a closer look

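No member of the transporter set met a rule for a closer look, and groups of 3 arrays were not tested for outlying samples. Among the companion genes, 2 had an estradiol response that differed between the lines once the 2 arrays against their labels were left out. In that fit 0.752% of all tested genes were called. The 2 were 1 of 20 other transporters tested and 1 of 27 tested genes of the amino acid response, and no other list gave a call. Whether 2 calls over all lists exceed the share of all genes was not tested. For the taurine carrier SLC6A6 the response of the knockout line was −0.76 ± 0.10 (SE) relative to that of the parental line (adjusted p = 0.0020), and with all 12 arrays the difference was −0.19 (adjusted p = 0.89). SLC6A6 read 8.07 and 8.02 on parental estradiol replicates 1 and 2 and 7.16 and 7.07 on knockout estradiol replicates 2 and 3, against 8.04 on knockout estradiol replicate 1 and 7.23 on parental estradiol replicate 3. For DDIT4, an mTORC1 inhibitor that ATF4 is known to raise, the difference of responses was 0.68 ± 0.13 (adjusted p = 0.028) without the 2 arrays and 0.12 (adjusted p = 0.94) with them. DDIT4 read 11.23 and 11.31 on parental estradiol replicates 1 and 2, 12.14 and 12.06 on knockout estradiol replicates 2 and 3, and 11.26 on knockout estradiol replicate 1 and 12.12 on parental estradiol replicate 3.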

How the results depend on the processing

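Over 60 member values in 6 comparisons, 9 were called, and of 1474 recomputed values 1407 stayed on the same side of the threshold, 35 were no longer called, 32 were newly called and 0 reversed. The cause of these changes was not tested. Between the untreated lines the 3 calls became 0 with no filter, 1 after quantile normalization, 1 with a trended and robust prior, 0 at an adjusted p under 0.01 and 0 with a minimum change of 1.2-fold, and ranged from 0 to 3 with single arrays left out. The share of all genes called also moved, from 0.0102% to 22.5% over the alternatives and from 2.21% to 14.4% over single omissions. Between the lines with estradiol the 0 calls became 3 without the 2 arrays against their labels and 3 with quantile normalization as well. There 0% to 14.6% of all genes were called over the alternatives. For estradiol in the parental line the 2 calls ranged from 2 to 4 with single arrays left out, and in the knockout line they became 1 with a minimum change of 1.2-fold. Of all genes, 0.529% to 16.2% (parental) and 0.356% to 9.71% (knockout) were called over the alternatives. Single omissions gave 2.58% to 8.68% and 1.64% to 5.62%. For the mean response the 2 calls became 4 without the 2 arrays and ranged from 2 to 4 with single arrays left out. The share of all genes ran from 0.824% to 17.8% over the alternatives and from 7.13% to 13.0% over single omissions. The interaction kept 0 calls under every alternative run, where 0% to 2.39% of all genes were called. These ranges include the replicate block. SLC7A5 was called under each alternative in both lines, at 0.96 to 1.17 in the parental and 1.06 to 1.21 in the knockout line. With the replicate number as a block, 12 arrays gave 3, 0, 2, 2, 0 and 2 calls in the 6 comparisons, as without it, and 10 arrays gave 2 between the lines with estradiol, where SLC38A2 lost its call (−0.29, adjusted p = 0.089), and 4 for the mean response. Quantile normalization moved the share of all called genes that were higher from 21.1% to 55.8% between the untreated lines, from 16.1% to 46.8% for estradiol in the parental line, from 30.5% to 44.1% in the knockout line and from 17.4% to 45.3% for the mean. Over single omissions all genes called between the untreated lines numbered 435 to 2826, against 2152, and those of the estradiol responses 508 to 1707 (parental, against 1376) and 323 to 1105 (knockout, against 763). The fit of only the compared groups does not apply to the interaction or the mean response.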
